A study of Homo sapiens with 6 samples.

Results

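The BCL2 family decides whether a cell keeps its mitochondrial outer membrane intact. H3K27ac, an acetylated form of histone H3 that is found at promoters and enhancers in use, was examined here at 10 of its genes in SU-CCS-1 cells. The genes were BCL2, BCL2A1, BCL2L1, BCL2L2 and MCL1 (pro-survival), BAX and BAK1 (effectors), and BCL2L11, BBC3 and PMAIP1 (BH3-only). They were chosen by name, under a rule that used no peak values, but earlier results of these data were known when the family was chosen. The genes are 10 of 20046 protein-coding genes in GENCODE version 44. The window of a gene was its body with 50 kb on either side, and a promoter peak was a peak with any base within 3 kb of the start of any annotated transcript of the gene. The windows held 55 of the 30784 peaks of the series, and no peak was shared between the windows of these genes.

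SU-CCS-1 is an established human clear cell sarcoma line that carries the EWSR1::ATF1 fusion, and the series is a single condition of this line, with 3 H3K27ac chromatin immunoprecipitation replicates and 3 Input replicates. A single line stands for the tumor type here, and every library shares its genotype. The deposited list merged the H3K27ac data into positions on hg38 alone, without heights, read counts or values per replicate. No spread between replicates and no test could therefore be computed, the depth behind each peak is unknown, and a gene without a peak had a signal under the authors' calling cutoff, which does not show that acetylation was absent.

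The pro-survival proteins hold the effectors BAX and BAK1 in check and bind the short BH3 helix of the BH3-only proteins. When BH3-only proteins accumulate, they occupy the pro-survival proteins or engage the effectors directly. BAX and BAK1 then assemble in the mitochondrial outer membrane and release cytochrome c, which starts the caspase cascade.

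The lineage of the cells was checked against marker genes. Promoter peaks were present at 6 of 7 melanocytic and neural crest genes, namely SOX10, MITF, PMEL, MLANA, S100B and DCT, and TYR had none, while 63.4% of all protein-coding genes had a promoter peak. The canonical start itself lay inside a peak at 3 of the 7, SOX10, MITF and DCT, against 53.5% of protein-coding genes. MLANA had 0 acetylated bases within 3 kb of its canonical start. Promoter peaks of SOX10 and PMEL also held starts of other protein-coding genes. The 6 markers of other cells, PTPRC, CD3E, EPCAM, MYOD1, MYOG and PECAM1, had no promoter peak. Peaks of the whole list had a median width of 1060 bases, with quartiles of 620 and 1760 bases.

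Promoter acetylation was called at 9 of the 10 BCL2 family genes, against 63.4% of protein-coding genes. BCL2A1 was the exception. The same 9 genes had the start of their canonical transcript inside a peak, against 53.5% of protein-coding genes. Across the family, 43 of 55 annotated starts lay inside a peak, against 41.1% of the annotated starts of all protein-coding genes. All 8 starts of the effector genes were covered, while the pro-survival genes had 27 of 35 covered and the BH3-only genes 8 of 12. Starts of a gene often shared a peak, as did 10 of the 11 starts of BCL2L1. They are therefore not separate units, and genes with many annotated starts weigh more in these counts. No test of these shares was made.

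**Figure D1:**
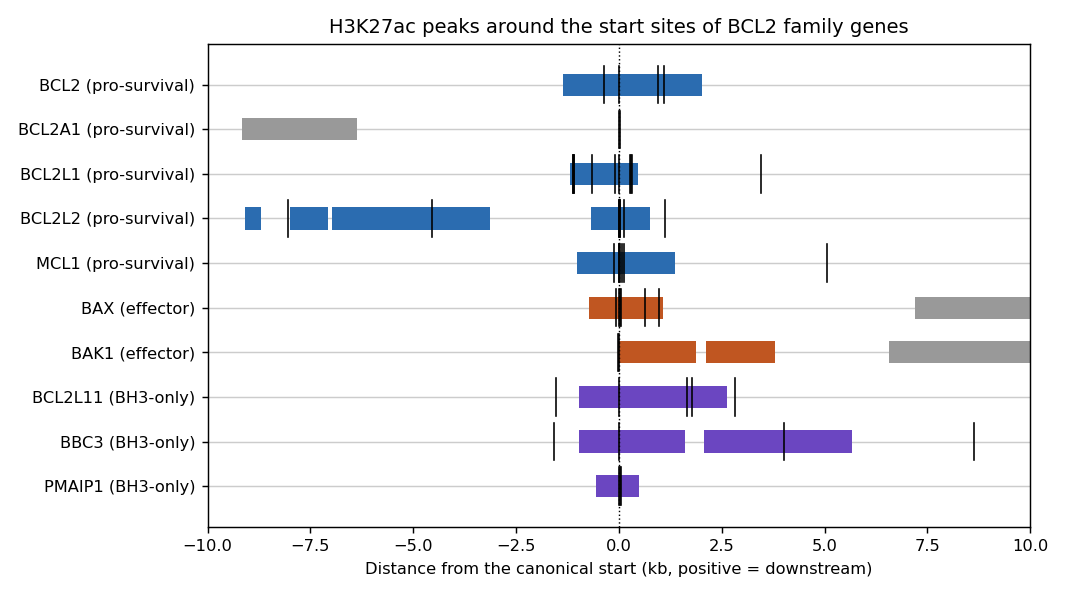
Peaks within 10 kb of the canonical start of each gene (x axis, kb, positive is downstream of the start on the gene's own strand), drawn to scale as bars. Colored bars are promoter peaks of the gene (blue for pro-survival, orange for effector, purple for BH3-only), gray bars are other peaks and black ticks are annotated transcript starts. Every gene but BCL2A1 had a bar over position 0, and the bar of BAK1 began only 34 bases before its canonical start.

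Among the pro-survival genes, BCL2, the founding member whose product sits on mitochondrial and endoplasmic reticulum membranes, had acetylation spread along a long gene. The gene spans chr18:63123346-63320128 on the minus strand, and its window measured 297 kb. The window held 10 peaks, a count at the 93.2nd percentile of protein-coding genes, while the covered share of the window, 4.35%, was at the 70.0th. Of the 10 peaks, 9 touched the gene body. The widest, chr18:63317761-63321140, measured 3380 bases and covered the canonical start at 63319769, with 1371 bases upstream of the start and 2009 bases from the start downstream. It contained 4 of the 7 annotated starts. A further promoter peak of 1250 bases, chr18:63160631-63161880, lay in intron 2, with its midpoint 159 kb downstream of the canonical start, and covered an internal start at 63161869.

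The other peaks of the BCL2 body were distal, meaning more than 3 kb from any annotated start of a gene. They numbered 7, of which 6 were in intron 2 and 1 was centered in exon 3. They measured 470 to 1700 bases and summed to 6.2 kb, more than the 4.63 kb in the promoter peaks of the gene. The distal peaks were spread along the body at 17.5 to 193 kb from the canonical start, and the shortest gap between any pair of them was 430 bases. The remaining peak of the window, 47.6 kb upstream, was at the promoter of KDSR, a sphingolipid synthesis gene.

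The center of the intronic BCL2 promoter peak is shown because motifs for AP1, the factor of JUN and FOS proteins, and for E-box proteins meet there. The sequence covers chr18:63161106-63161405 of hg38 on the plus strand. Capitals mark the AP1 motif TGAGTCA, which overlaps CACATG, the reverse complement of the E-box CATGTG.
BCL2 intronic promoter peak, central 300 bases: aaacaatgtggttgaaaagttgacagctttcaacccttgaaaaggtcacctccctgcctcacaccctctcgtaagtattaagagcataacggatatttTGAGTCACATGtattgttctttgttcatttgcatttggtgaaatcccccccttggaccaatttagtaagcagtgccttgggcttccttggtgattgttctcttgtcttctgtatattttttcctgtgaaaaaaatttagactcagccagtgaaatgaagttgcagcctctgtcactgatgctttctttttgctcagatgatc
TGAGTCA occurred in the central 300 bases of 3.97% of all peaks, and CATGTG in 12.2%, on either strand. Of the 16 promoter peaks of the BCL2 family, 2 held TGAGTCA and 2 held CATGTG, in both cases 1 at BCL2 and 1 at BCL2L2. The center of the peak over the canonical BCL2 start held none of the 8 motifs searched.

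BCL2A1 encodes a short-lived pro-survival protein and is known in melanocytes as a target of the lineage factor MITF. The gene, at chr15:79960892-79971196 on the minus strand, was the only gene of the 10 without a promoter peak, and neither of its 2 starts was covered. Its body held 0 acetylated bases. The nearest peak, chr15:79977561-79980370, was intergenic, measured 2810 bases and ended 6365 bases upstream of the canonical start. It stood alone, 53060 bases from the next peak on the left and 78640 bases from the next on the right, and BCL2A1 was the protein-coding gene with the nearest start. The other peak of the window belonged to ST20-MTHFS, 47.7 kb downstream.

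The RefSeq promoter window of BCL2A1 (GRCh38.p14, chr15:79971147-79971446, minus strand, 250 bases before the start to 50 after) and the center of the upstream peak (chr15:79978816-79979115, plus strand) are shown because the uncovered promoter and the nearest peak each held an E-box of the form CATGTG. The upstream peak was picked after its position was seen. Capitals mark that motif, read as CACATG in the peak.
BCL2A1 promoter window: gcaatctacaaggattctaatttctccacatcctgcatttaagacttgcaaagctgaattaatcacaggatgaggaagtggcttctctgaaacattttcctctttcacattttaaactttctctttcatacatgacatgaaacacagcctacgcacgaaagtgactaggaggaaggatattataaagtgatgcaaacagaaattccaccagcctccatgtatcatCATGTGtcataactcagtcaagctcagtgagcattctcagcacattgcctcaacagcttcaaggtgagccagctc
BCL2A1 upstream peak, central 300 bases: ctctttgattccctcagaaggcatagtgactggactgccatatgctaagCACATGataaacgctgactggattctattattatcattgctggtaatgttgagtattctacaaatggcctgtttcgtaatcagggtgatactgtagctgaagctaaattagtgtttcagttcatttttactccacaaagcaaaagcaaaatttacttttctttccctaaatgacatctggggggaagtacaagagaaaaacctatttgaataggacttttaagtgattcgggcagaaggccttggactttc
The motif lay 25 bases before the RefSeq start of BCL2A1. CATGTG was present in 11.1% of the 35116 RefSeq promoter windows, and BCL2A1 alone carried it among the 8 BCL2 family genes in that table. Both sequences were poor in G and C, with 41.0% in the promoter window and 38.7% in the peak center, against a median of 58.7% over all promoter windows. The promoter window contained 2 CpG dinucleotides, against a median of 14.

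BCL2L1, which produces the pro-survival BCL-xL and the pro-death splice form BCL-xS, spans chr20:31664452-31723989 on the minus strand. A single promoter peak, chr20:31722401-31724060, measured 1660 bases and covered 10 of 11 annotated starts. It extended mainly upstream, with 1192 bases before the canonical start and 468 bases from it downstream. The promoter peak also lay within 3 kb of the non-coding gene ABALON. The gene body held 3 distal peaks, all in its 3′ part between 47.5 and 57.9 kb from the canonical start, which measured 450, 860 and 1410 bases. A stretch of 46.3 kb without a peak separated them from the promoter peak. The protein-coding start nearest to each of the 3 was that of COX4I2, 26.8 to 36.7 kb away. The remaining peak of the window was at TPX2, a spindle assembly gene 16.1 kb upstream.

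BCL2L2 encodes the pro-survival protein BCL-w. It had 5 promoter peaks, more than any other of these genes, but its starts are interleaved with those of its neighbors. The gene lies at chr14:23298790-23311751 on the plus strand. The peak over the canonical start, chr14:23306161-23307600, measured 1440 bases and also held the start of the read-through gene BCL2L2-PABPN1. The widest, chr14:23299861-23303690, measured 3830 bases and contained a start of BCL2L2 together with a start of PPP1R3E, a glycogen-targeting phosphatase subunit. All 4 promoter peaks upstream of the canonical one were also within 3 kb of starts of HOMEZ and PPP1R3E, and which gene they serve cannot be told apart from positions alone. The window held no distal peak, and its other 3 peaks were at HOMEZ and PABPN1.

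MCL1 encodes a pro-survival protein with a very short half-life. A promoter peak of 2390 bases, chr1:150578251-150580640, covered 6 of 7 starts of the gene, with 1030 bases upstream of the canonical start and 1360 bases from it downstream. The gene body, chr1:150560895-150579738 on the minus strand, was touched by 2 further peaks. The peak at the 3′ end, chr1:150560641-150563030, also measured 2390 bases and was within 3 kb of ADAMTSL4, while the other, of 530 bases, was near non-coding starts. The window contained 7 peaks in all, of which 1 was distal, 46.9 kb downstream. The protein-coding start nearest to this distal peak was that of ADAMTSL4, 15.7 kb away.

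The widest promoter peaks of the effectors were of similar width, but BAX had a single promoter peak with 1810 bases and BAK1 a pair with 3.59 kb in all. BAX, which moves from the cytosol into the mitochondrial membrane, had a promoter peak of 1810 bases, chr19:48954141-48955950, over all 6 of its starts. This peak held 734 bases upstream of the canonical start and 1076 from it downstream, and the body of the gene, chr19:48954815-48961798 on the plus strand, held no other. BAX had no distal peak. Its window held 13.538 kb of acetylated sequence inside its bounds, and this amount followed the flank, at 6.32 kb with 25 kb on either side and 29.15 kb with 100 kb. Of its 5 peaks, 3 were wide promoter peaks of neighbors. At whole width, also beyond the edge of the window, they measured 4510 bases at FTL, the ferritin light chain, 3790 bases between GYS1 and RUVBL2, and 10140 bases at RUVBL2 and LHB.

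The BAX promoter window is shown for its repeated E-box CACGTG (RefSeq, GRCh38.p14, chr19:48954625-48954924, plus strand). Capitals mark CACGTG, and in the leftmost match also the half-site TGACG of the ATF/CREB motif, which overlaps it.
BAX promoter window: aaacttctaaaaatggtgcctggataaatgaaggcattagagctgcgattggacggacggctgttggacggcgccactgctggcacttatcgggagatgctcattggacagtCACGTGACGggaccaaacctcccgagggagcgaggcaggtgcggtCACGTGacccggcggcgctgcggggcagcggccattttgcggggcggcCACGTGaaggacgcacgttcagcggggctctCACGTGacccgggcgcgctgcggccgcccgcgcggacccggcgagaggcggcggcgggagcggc
All 300 bases lay inside the BAX promoter peak. CACGTG occurred 4 times, at 138, 93, 45 and 14 bases before the RefSeq start. The motif was present in 7.26% of promoter windows, and 4 or more copies were present in 5 of 35116 windows. This repeat was noticed after the windows had been scanned, and is a description. Of the other BCL2 family windows, only that of BBC3 held CACGTG, with 1 copy. The TGACG half-site was found in the windows of BAX, BCL2, BCL2L1 and PMAIP1, and in 24.6% of all windows. The full ATF/CREB motif TGACGTCA was found in none of the 9 windows of these genes, where 1.85% of all windows held it. Its variant TGANNTCA, with any base at each N, was also found in none, where 11.5% held it. In the central 300 bases of the 16 promoter peaks of the family, TGACGTCA was absent, against 0.637% of all peaks. TGANNTCA was found there in 1, at BCL2L2, against 12.7% of all peaks. The sequence TATAAA, searched for as the TATA box motif, was found in the windows of BCL2A1 and BCL2L1, and in 11.5% of all windows. The match nearest to the RefSeq start was at position -70 in BCL2A1. In BCL2L1 it was at position -125, in the window upstream of the canonical start. Matches were counted anywhere in a window, and whether they act as TATA boxes was not tested.

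BAK1, the effector that resides in the mitochondrial membrane, was acetylated almost entirely on the transcribed side of its start. The gene is short, at chr6:33572547-33580293 on the minus strand. The peak over its starts, chr6:33578401-33580310, measured 1910 bases, of which only 34 were upstream of the canonical start. A further promoter peak of 1680 bases, chr6:33576471-33578150, followed after a gap of 250 bases and was centered in intron 2. At the 3′ end a distal peak of 4000 bases, chr6:33569701-33573700, overlapped the end of the gene and was centered in the non-coding gene GGNBP1. Together these peaks covered 61.0% of the BAK1 body, the highest share of the 10 genes. A further distal peak of 410 bases lay 30.8 kb upstream of the canonical start, and ITPR3 had the protein-coding start nearest to it.

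The BH3-only genes divided by their surroundings. BCL2L11 encodes BIM, which binds every pro-survival member and also activates the effectors. It spans chr2:111119378-111168444 on the plus strand, with a single peak, chr2:111119941-111123530, of 3590 bases. The peak held 973 bases upstream of the canonical start and 2617 bases from it downstream, and it covered 3 of 5 annotated starts. The 2 uncovered starts lay 216 and 563 bases from its edges. No other peak occurred within 441 kb on the left or 222 kb on the right. Of the 30736 peaks with a neighbor on both sides, 2.40% stood at least as far from their nearer neighbor. No other protein-coding gene started in the window.

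PMAIP1 encodes NOXA, which binds MCL1 and BCL2A1 preferentially. It was the most isolated, and its widest promoter peak was narrower than the widest of any other of the 9 genes with such a peak. The gene lies at chr18:59899996-59904305 on the plus strand. Its only peak, chr18:59899431-59900480, measured 1050 bases and covered all 3 starts, with 565 bases upstream of the canonical start and 485 from it downstream. The nearest other peaks were 540.0 kb and 1993 kb away, and 183 of 30736 peaks, or 0.595%, stood at least as far from their nearer neighbor. With BCL2L11, it was 1 of 2 family genes with at most 1 peak in the window, a state found at 33.6% of protein-coding genes.

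The PMAIP1 promoter window is shown because this short, isolated peak contained it whole (RefSeq, GRCh38.p14, chr18:59899746-59900045, plus strand). Capitals mark CGTCA, the reverse complement of the half-site TGACG, 55 bases before the start.
PMAIP1 promoter window: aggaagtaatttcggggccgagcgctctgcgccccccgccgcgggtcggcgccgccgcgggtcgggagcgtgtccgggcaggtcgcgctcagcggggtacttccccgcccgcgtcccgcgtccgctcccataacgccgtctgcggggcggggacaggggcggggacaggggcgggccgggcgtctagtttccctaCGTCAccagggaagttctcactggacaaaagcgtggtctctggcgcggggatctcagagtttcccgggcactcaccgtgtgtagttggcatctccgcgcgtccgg
The window contained 71.3% G and C and 42 CpG dinucleotides, and 4 matches to GGGCGG, the GC box of SP factors, which 45.0% of promoter windows contained at least once. The BCL2L11 window resembled it, with 74.7% G and C, 39 CpG dinucleotides and 3 matches to GGGCGG, and also lay entirely within its peak. Among the 8 genes with a window in the table, the wide peak of BCL2L11 and the narrow peak of PMAIP1 thus overlay the windows with the highest G and C content.

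BBC3 encodes PUMA, a strong BH3-only protein that binds every pro-survival member. Inside the bounds of windows with 50 kb flanks, it had more acetylated sequence than any other of the 10 genes. This order depended on the flank. With 25 kb on either side BBC3 had 8.676 kb, below BCL2L2 at 13.48 kb and BCL2 at 10.83 kb, and with 100 kb its 21.32 kb was below BCL2L1 at 30.13 kb and BAX at 29.15 kb. The gene lies at chr19:47220822-47232766 on the minus strand. With the 50 kb flanks there were 11 peaks with 17.53 kb of acetylated sequence, at the 94.8th and 94.0th percentiles of protein-coding genes. A promoter peak of 2590 bases, chr19:47229581-47232170, covered the canonical start, and another of 3620 bases, chr19:47225521-47229140, followed after 440 bases and covered an internal start. Together they covered 52.0% of the gene body. The starts farthest upstream and farthest downstream were outside the peaks, by 596 and 2953 bases.

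A cluster of 6 distal peaks, chr19:47182921-47191440, lay 39.8 to 48.3 kb downstream of the canonical BBC3 start, in intron 6 of SAE1, a subunit of the SUMO-activating enzyme. The peaks measured 720 to 1490 bases, were separated by gaps of 230 to 620 bases, and covered 75.5% of the 8.52 kb that they spanned. BBC3 was the protein-coding gene whose start was nearest to each of them. The cluster summed to 6.43 kb, close to the 6.21 kb in the BBC3 promoter peaks. The window also held promoter peaks of CCDC9 and INAFM1.

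The BBC3 promoter window is shown because RefSeq places the start of the gene outside the called peaks (GRCh38.p14, chr19:47232618-47232917, minus strand). Its nearest edge lay 448 bases from a peak. Capitals mark CACGTG and TGAGTCA.
BBC3 promoter window: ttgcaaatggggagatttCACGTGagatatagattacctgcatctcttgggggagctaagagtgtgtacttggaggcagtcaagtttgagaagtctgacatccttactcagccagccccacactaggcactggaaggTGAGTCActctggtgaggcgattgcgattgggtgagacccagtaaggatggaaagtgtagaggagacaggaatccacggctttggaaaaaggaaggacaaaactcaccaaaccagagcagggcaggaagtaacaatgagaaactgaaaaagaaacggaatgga
Among the 8 genes only the window of BBC3 held TGAGTCA, a motif found in 4.95% of promoter windows. It contained 48.0% G and C and 5 CpG dinucleotides. The center of the peak over the canonical BBC3 start was in contrast 77.0% G and C. Promoter windows of BBC3 and BCL2A1 were thus the only ones without an acetylated base, and those of BCL2, BAX, BCL2L11 and PMAIP1 were acetylated throughout. The BAK1 window had 84 of 300 bases in a peak, and the windows of BCL2L1, at separate starts, had 300 and 147. Promoter windows of BCL2L2 and MCL1 were not scanned.

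Most of the distal peaks stood at BCL2 and BBC3. Of the 55 peaks in the windows, 16 were promoter peaks of the family, 15 were at promoters of other protein-coding genes, 4 were near non-coding starts and 20 were distal. These 2 genes held 13 of the 20 distal peaks. BCL2L1 held 3, BAK1 held 2, and BCL2A1 and MCL1 held 1 each. The remaining 4 genes, BCL2L2, BAX, BCL2L11 and PMAIP1, had none within 50 kb. The share of all protein-coding genes without a distal peak in such a window was not computed, so these counts are descriptions. In all, 11 of the 20 touched the body of the family gene itself.

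**Figure D2:**
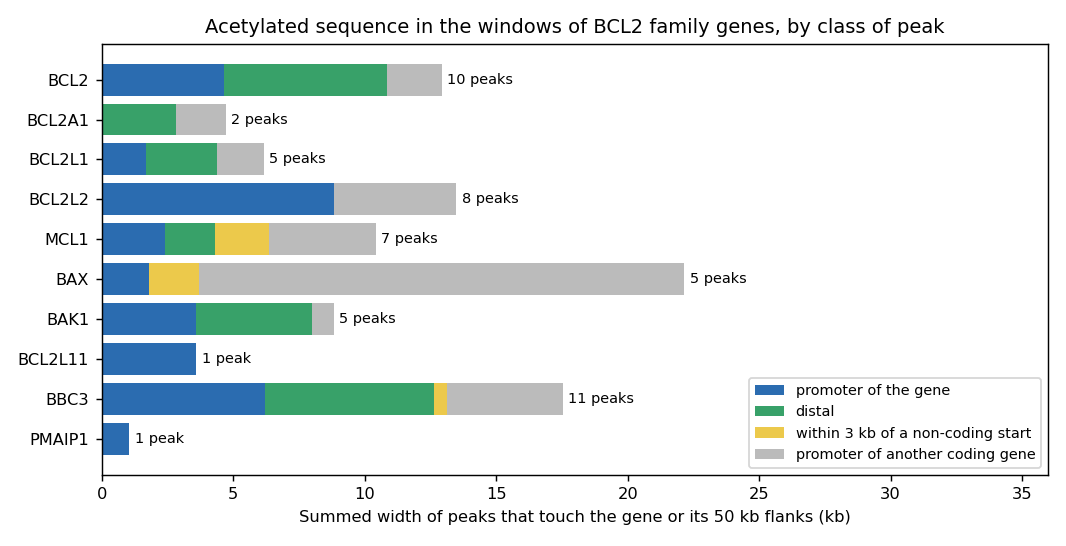
Summed width (x axis, kb) of the peaks that touch each gene or its 50 kb flanks, divided into promoter peaks of the gene (blue), distal peaks (green), peaks within 3 kb of a non-coding start (yellow) and promoter peaks of other coding genes (gray). Peaks are counted at whole width, and the number of peaks follows each bar. The bar of BAX is mostly gray, at 18.44 kb, and the bars of BCL2L11 and PMAIP1 are blue throughout.

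**Figure D3:**
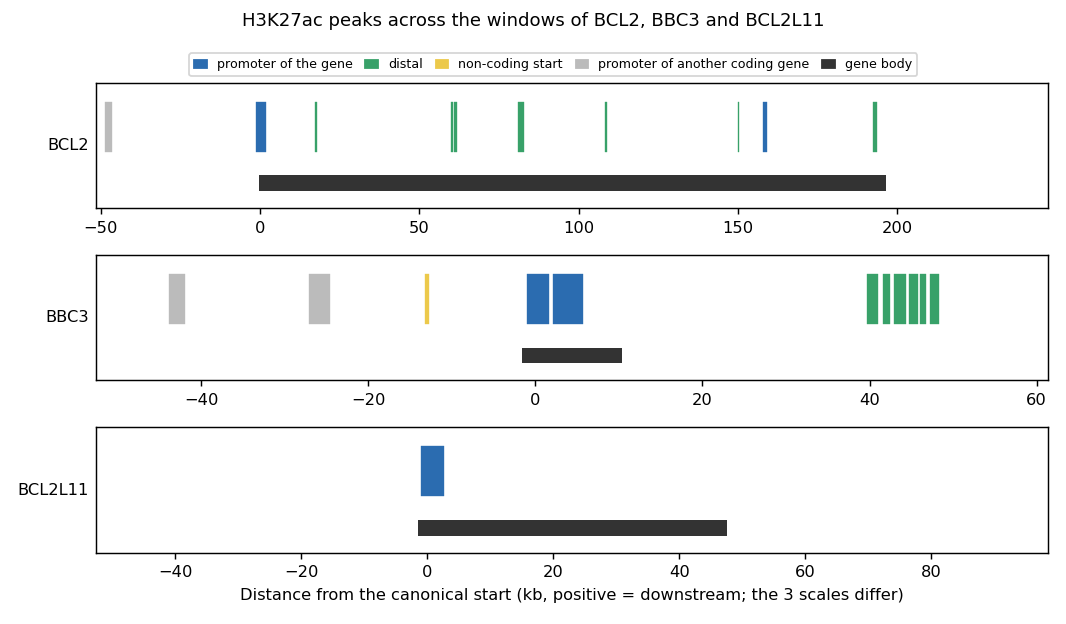
Peaks over the full windows of BCL2, BBC3 and BCL2L11 (x axis, kb from the canonical start, positive is downstream, with a separate scale for each gene), drawn to scale above the gene body (black). Distal peaks (green) are scattered through BCL2, stand in a cluster beyond the 3′ end of BBC3, and are missing from BCL2L11.

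The medians over the 10 genes were above those over all protein-coding genes. The median was 5 peaks per window against 3, and 9.29 kb of acetylated sequence against 3.3 kb, for which the quartiles over all genes were 1.11 and 7.39 kb. Both window measures also count promoter peaks of neighboring genes, which were 15 of the 55 peaks here. In gene bodies alone the median over the 10 genes was 4.23 kb, and no value over all genes was computed for bodies. Within 3 kb on either side of the canonical start the median was 2100 acetylated bases against 920. On that measure 9 of 10 genes were above the median of all genes and 6 were above the upper quartile of 1780 bases, namely BCL2 at 3380, MCL1 at 2390, BAX at 1810, BAK1 at 2785, BCL2L11 at 3590 and BBC3 at 3532. BCL2L1 had 1660, BCL2L2 1440 and PMAIP1 1050 bases, and BCL2A1 had 0. These medians describe a list of 10 genes, and were not tested.

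**Figure D4:**
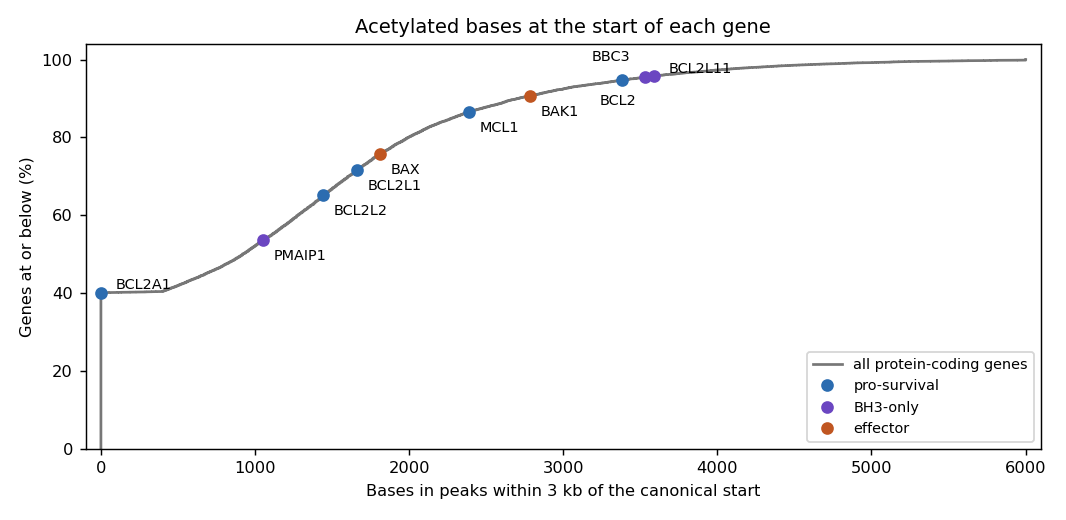
Share of all 20046 protein-coding genes (y axis, %) with at most the given number of acetylated bases within 3 kb of the canonical start (x axis, bases), with the 10 BCL2 family genes marked by role. BCL2, BBC3 and BCL2L11 lie near the upper end at 3380 to 3590 bases, PMAIP1 lies near the middle at 1050 bases, and BCL2A1 is at 0.

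The width of the widest promoter peak ranged from 1050 bases at PMAIP1 to 3830 bases at BCL2L2 among the 9 genes with such a peak. Over all 12701 protein-coding genes with a promoter peak the median was 1600 bases, with quartiles of 1110 and 2250 bases. By role, the widest promoter peaks were 1810 and 1910 bases at the effectors BAX and BAK1, and 1050, 3590 and 3620 bases at the BH3-only genes PMAIP1, BCL2L11 and BBC3. The pro-survival genes ranged from no promoter peak at BCL2A1 through 1660, 2390 and 3380 bases at BCL2L1, MCL1 and BCL2 to the 3830 bases at BCL2L2. The ranges of the BH3-only and pro-survival genes overlapped, and the effectors lay inside both. Several promoter peaks were present at 4 of 10 genes (BCL2, BCL2L2, BAK1 and BBC3), against 19.2% of protein-coding genes.

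Peaks were joined into 17049 regions with the stitching distance of the study. With no signal in the list, regions were ordered by the sum of their peak widths. The ranked curve reached a slope of 1 at 7.97 kb, past which 879 regions lay. These regions rank width and are not the super enhancers called in the study from reads. A region past that point overlapped 2 of 10 family genes with 3 kb on either side, BCL2L2 and BBC3, against 7.9% of protein-coding genes. The BCL2L2 region, chr14:23285241-23307600, joined 6 peaks with 11.01 kb and ranked 491. It contained starts of HOMEZ, PPP1R3E and BCL2L2-PABPN1 as well. The BBC3 region, chr19:47225521-47258310, joined 4 peaks with 9.22 kb, ranked 689 and also contained the start of CCDC9.

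The other regions of the family were below that point. The BAK1 region summed 7.59 kb over 3 peaks and ranked 968, the closest below. The BAX region, which included the FTL peak, ranked 1297 and that of MCL1 ranked 1479. Despite its 10 peaks, BCL2 was divided among separate regions, the highest of which was the canonical promoter peak alone at rank 3142. The lone peaks of BCL2L11 and PMAIP1 ranked 2884 and 11807. With peaks lying wholly inside 2.5 kb of a start removed, the rest were stitched and ranked again, and 460 regions lay past a new slope-1 point. No family gene overlapped any of them, and the share of all protein-coding genes was not computed under this setting.

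In the wider apoptosis pathway, 34 of 45 other genes in 6 lists had a promoter peak, beside the 63.4% of all protein-coding genes. With 5 to 10 genes to a list, the counts of each list are descriptions. Among relatives of the family, promoter peaks were present at 3 of 5 other BH3-only genes (BAD, BID and BMF, without BIK and HRK) and 2 of 6 other multidomain genes (BCL2L12 and BCL2L13, without BOK, BCL2L10, BCL2L14 and BCL2L15). No comparison with the 10 genes was tested. Downstream of the effectors, 7 of 8 apoptosome and caspase genes had a promoter peak, including APAF1 at 2280 bases and CYCS, which encodes cytochrome c, at 1650 bases, and CASP10 had none. Of the inhibitors of apoptosis and their antagonists, 7 of 8 had a promoter peak, with BIRC7, which encodes the livin protein, the widest at 4640 bases, and BIRC3 had none. Promoter peaks of BAD, BCL2L12, BCL2L13 and APAF1 also held starts of other protein-coding genes, and which gene they serve cannot be told from positions alone.

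Upstream of the family, 9 of 10 regulators of its transcription had a promoter peak, again beside 63.4% of protein-coding genes. DDIT3 and ATF4, stress factors that induce BH3-only genes, had widest promoter peaks of 5340 and 5220 bases. FOXO3 and FOXO1, known activators of BCL2L11, had 4270 and 4020 bases. TP73 had none. Of the death receptors and adaptors, 6 of 8 had a promoter peak, a share near that of all genes, from 820 bases at FAS to 4230 bases at CFLAR, which encodes the caspase-8 inhibitor cFLIP. FASLG and TNFRSF10A had none. Promoter peaks of DDIT3 and FAS also held starts of other protein-coding genes.

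**Figure D5:**
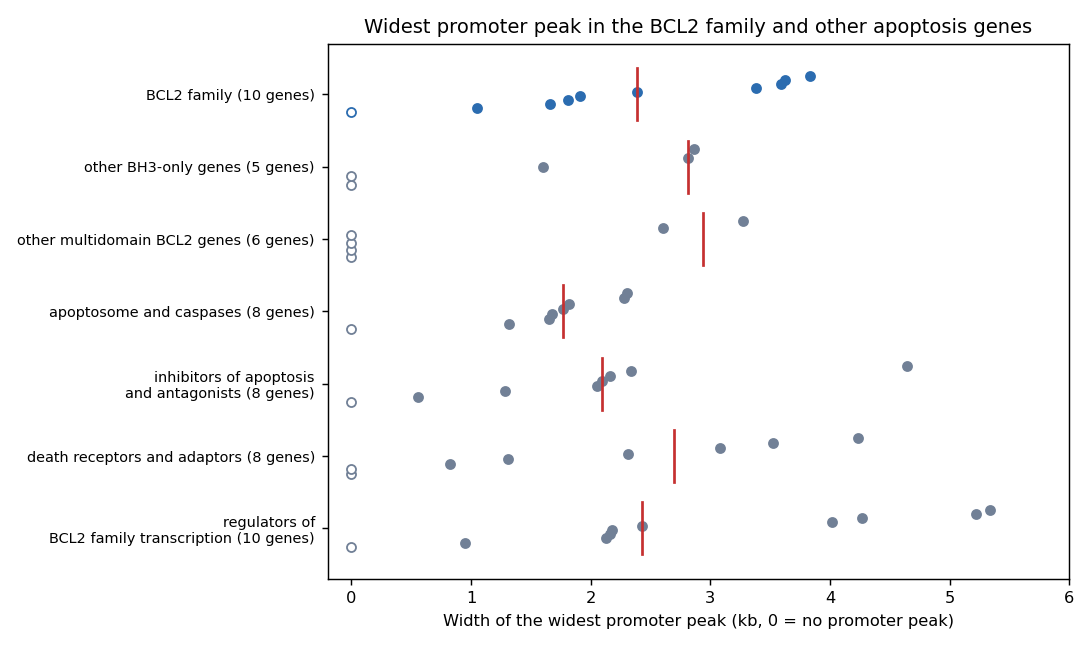
Width of the widest promoter peak (x axis, kb) of the 10 BCL2 family genes and of 45 genes in 6 other apoptosis lists, with 1 point per gene. Open points at 0 had no promoter peak, and red lines are medians over the genes with such a peak. Filled points of the BCL2 family range from 1.05 to 3.83 kb, and 4 of 6 other multidomain genes are at 0.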

How the data were processed

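H3K27ac ChIP-seq of SU-CCS-1 cells was aligned by the authors to hg38 with BWA-MEM (0.7.10-r789), cleared of duplicates with samtools, and called with MACS2 (2.2.6, both versions per the submitters' processing notes) in broad mode against Input. The authors removed ENCODE denylist regions and deposited 1 merged list of 4 columns (chromosome, start, end, name), which holds no signal, score or count. Groups came from the sample titles. Starts and bodies were taken from GENCODE version 44, and promoter sequences from RefSeq (GRCh38.p14). Coordinates are counted from 1. Percentiles are over all 20046 protein-coding genes. The 8 motifs spelled out in the report were counted on both strands in promoter windows and in the central 300 bases of peaks. Python 3.11.15, numpy 2.4.6 and pysam 0.24.0 were used, and the scripts were tested on simulated data. All 10 genes, the genes of the fixed lists, genes starting within 3 kb of a peak in a window and genes nearest to distal peaks could be named. SAE1, GGNBP1 and ABALON were named after their positions were seen. The family, lists and motifs were chosen with earlier results of these data known. Some genes of the lists are counted but not reported here by name. The closing section gives the alternatives.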

Additional observations from a re-analysis of the deposited data

How the results depend on the processing

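The merged list sets the limits. It gives no depth or replicate, so neither a replicate could be left out nor an error given, and peak width follows both signal height and how broad calling joins stretches. No paired analysis was possible because the list has no column for any replicate. Of 26 alternatives to the summary counts and medians, 23 stayed within 1.5 times the reported value. This compares counts and not which genes were counted, and a count of 9 out of 10 could leave that range only by falling. Some values stayed inside narrowly. With 25 kb flanks the windows held 38 peaks against 55, and the median was 6.24 kb against 9.294 kb. The acetylated kb of single genes depended more on the flank, with 14 of 30 values moved by more than that. With 25 kb flanks BBC3 had 8.676 kb and BAX 6.32 kb, with 100 kb BAX had 29.15 kb and BCL2L1 30.13 kb, and in the body alone BCL2 at 9.818 kb exceeded BBC3 at 6.21 kb. BCL2A1 lacked a promoter peak under all 6 definitions tried, and among the widest 50% of peaks PMAIP1 lacked one too. That cut was the median width of 1060 bases, and the only PMAIP1 peak measured 1050. It left 8 of 10 genes with a promoter peak, against 48.9% of protein-coding genes. Under the other definitions 9 of 10 had one, against 59.9% to 64.7% of protein-coding genes. With gene bodies alone in place of the 50 kb flanks, the windows held 27 peaks and the median fell to 4.23 kb of acetylated sequence. Leaving out peaks wholly inside 2.5 kb of a start and ranking again put 460 regions past a new slope-1 point. This left 0 genes in a stitched region past that point. Stitching within 5 kb gave BCL2L2 and BAK1 in place of BCL2L2 and BBC3, and ranking by span added MCL1. The share of all protein-coding genes was not computed under any of these stitching settings, so the counts are descriptions of these genes alone.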
